A study of Mus musculus with 12 samples.

Results

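The genes described here are 10 of those that make prostaglandins and leukotrienes from arachidonic acid. These 10 are Ptgs1, Ptgs2, Ptges, Ptgds, Hpgds, Ptgis, Alox5, Alox5ap, Alox15 and Ltc4s. They were chosen by name, and all 10 were found among the 55536 genes of the deposited tables. Their mRNA was measured by bulk RNA-seq of the stromal vascular fraction (SVF), the non-adipocyte cells left after collagenase digestion of inguinal white adipose tissue (iWAT), in male mice kept at room temperature. The study asked how ageing, and loss of the PDGF receptor Pdgfrβ at 12 months of age, change this tissue fraction.

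There were 3 groups of 4 mice with 1 library per mouse. The 12-month Pdgfrβ-KO mice carried floxed Pdgfrb alleles and Sma-CreERT2, a tamoxifen-inducible Cre driven by the smooth muscle actin promoter, so that the deletion is limited to Sma-expressing cells (mural and smooth muscle cells and the progenitors among them) while the other SVF cells keep the gene. The 12-month control mice and the 2-month control mice are labelled wild type, whereas the study names its 12-month controls Sma-Control, a line with Sma-CreERT2 and a Rosa26 reporter. The background was a C57BL6/J-129SV mixture. These descriptions of the 12-month controls differ in the Cre. Tamoxifen is named for the sequenced KO mice and was not found stated for the sequenced controls, so that tamoxifen and deletion cannot be told apart in the knockout comparison.

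Prostaglandins and leukotrienes are short-lived lipid signals of inflammation, vascular tone and adipose tissue remodelling. In the prostaglandin branch a cyclooxygenase, Ptgs1 (COX-1) or Ptgs2 (COX-2), turns arachidonic acid into the intermediate PGH2, which terminal synthases convert to PGE2 (Ptges), PGD2 (Hpgds in blood-derived cells, Ptgds in brain and some other tissues) or prostacyclin (Ptgis). In the leukotriene branch 5-lipoxygenase (Alox5), helped by its membrane partner FLAP (Alox5ap), makes leukotriene A4, which Ltc4s joins to glutathione to give the first cysteinyl leukotriene. Macrophages, mast cells and granulocytes are the textbook sources of leukotrienes, whereas Ptgs2 and Ptgis are also expressed by stromal and vascular cells.

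All 10 genes are annotated as protein-coding in GENCODE vM21 on GRCm38. On the plus strand lie Ptgs1 at chr2:36230426-36252272, Ptgs2 at chr1:150100031-150108227 and Alox5ap at chr5:149264767-149288153. On the minus strand the prostaglandin synthases are Ptges at chr2:30889471-30929863, Ptgds at chr2:25466709-25470046, Hpgds at chr6:65117293-65144908 and Ptgis at chr2:167191805-167240604. Also on the minus strand are Alox5 at chr6:116410077-116461178, Alox15 at chr11:70344152-70352031 and Ltc4s at chr11:50236461-50238616.

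Upstream sequences are shown for Ptgs2, the inducible cyclooxygenase, and for Alox5 and Ltc4s, which catalyse the first and the last of the steps of the leukotriene branch covered here. Of the 10 genes, 7 had an entry in the RefSeq promoter table for GRCm38, not counting Alox5ap, Ptgis and Alox15. The stretches end at the base before the outermost annotated start, so that Ltc4s is given by 166 bases at chr11:50238617-50238782 on the minus strand, Alox5 by 250 bases at chr6:116461179-116461428 on the minus strand and Ptgs2 by 250 bases at chr1:150099781-150100030 on the plus strand. Capitals mark GGGCGG, the GC box of Sp1-type factors, in Ptgs2 and Alox5, and AGGAAGTG, which holds the GGAA core of Ets-type factors, in Ltc4s.
Ptgs2: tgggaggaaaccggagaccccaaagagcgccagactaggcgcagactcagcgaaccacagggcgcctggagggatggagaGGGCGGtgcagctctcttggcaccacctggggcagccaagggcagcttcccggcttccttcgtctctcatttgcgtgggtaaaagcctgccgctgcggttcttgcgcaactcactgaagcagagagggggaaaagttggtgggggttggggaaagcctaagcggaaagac
Alox5: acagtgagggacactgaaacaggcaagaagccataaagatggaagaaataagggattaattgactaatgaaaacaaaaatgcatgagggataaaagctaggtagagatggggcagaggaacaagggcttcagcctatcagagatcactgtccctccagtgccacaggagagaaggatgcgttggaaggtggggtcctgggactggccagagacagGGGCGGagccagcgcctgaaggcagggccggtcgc
Ltc4s: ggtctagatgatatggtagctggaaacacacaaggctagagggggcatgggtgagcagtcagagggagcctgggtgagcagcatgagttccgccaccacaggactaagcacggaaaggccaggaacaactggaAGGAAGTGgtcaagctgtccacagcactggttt
The GC box lay 170 to 165 bases before the start of Ptgs2 and 35 to 30 bases before that of Alox5, and these letters, read on both strands, occurred in 32.7% of 32851 promoters. The AGGAAGTG match lay 33 to 26 bases before the outermost Ltc4s start and occurred in 3.14% of promoters. Hpgds held the same AGGAAGTG letters 48 to 41 bases before its RefSeq start, which is downstream of the outermost start annotated in GENCODE. Ptges held GGGCGG at 53 to 48 and 42 to 37 bases before its RefSeq start. The outermost GENCODE start of Ptges lies at −26566 bases relative to that RefSeq start, so the Ptges window lies inside the gene coordinates given above. Neither a TATA box (TATAAA), nor the core of a cAMP element (CGTCA), nor a CAAT box (CCAAT) was found in the 7 windows of 250 bases. Bases outside these windows were not searched, so such elements may lie further upstream or downstream. The motifs were picked after the sequences had been read, and a match is a description of letters and not of a bound site.

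The deposited values are counts divided by a library size factor and rounded, called normalized counts below, and they summed to 19.6 to 21.9 M per library. Recovered sequencing depth, where it could be determined, was lower in the 12-month Pdgfrβ-KO libraries (13.8 to 16.9 M counts in 3 libraries) than in the 12-month controls (21.0 to 23.6 M in 3 libraries) and the 2-month controls (21.4 to 24.8 M in 4 libraries). Pdgfrb itself had 1882, 2145, 1707 and 1749 normalized counts in 12-month Pdgfrβ-KO SVF, against 3000, 4380, 3258 and 2399 in 12-month control SVF. The groups did not overlap, the log2 fold change was −0.77 (adjusted p = 0.0161, limma), and the KO SVF kept a substantial Pdgfrb signal. In these bulk samples fewer cells of a type and less RNA per cell cannot be told apart.

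The leukotriene genes were higher in 12-month Pdgfrβ-KO SVF. Alox5, Alox5ap and Ltc4s each had more than double the normalized counts of 12-month control SVF, and the PGD2 synthase gene Hpgds was higher by a smaller step. Cyclooxygenase genes and the prostacyclin synthase gene Ptgis did not pass the test there. In the ageing comparison, Ptgs2, Ptges, Ptgis, Hpgds, Alox5ap and Ltc4s were higher in 12-month control SVF than in 2-month control SVF, and Alox5 did not pass. Of the 10 genes, 9 passed the filter on low values (at least 10 normalized counts in 4 of the 8 libraries of a comparison) and Ptgds did not.

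With limma on log2(value + 1) and an adjusted p under 0.05 over all genes tested, 4 of the 9 tested genes were higher and 0 lower in 12-month Pdgfrβ-KO than in 12-month control SVF, against a background of 4.96% of 16344 genes called higher and 4.46% called lower. In 12-month control against 2-month control SVF, 6 of the 9 were higher and 0 lower, against 11.3% of 16399 genes called higher and 11.4% called lower. At an unadjusted p under 0.05, 0 of the tested genes were lower in either comparison. The median log2 fold change of the 9 genes was 0.51 in the knockout comparison, where that of all genes tested was −0.01, and 0.84 in the ageing comparison, where that of all genes tested was −0.01. Both comparisons share the 12-month control libraries, and the difference between them was not tested. The genes were chosen with earlier results of these data known, so the counts beside the background are a description and not an independent test.

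**Figure D1:**
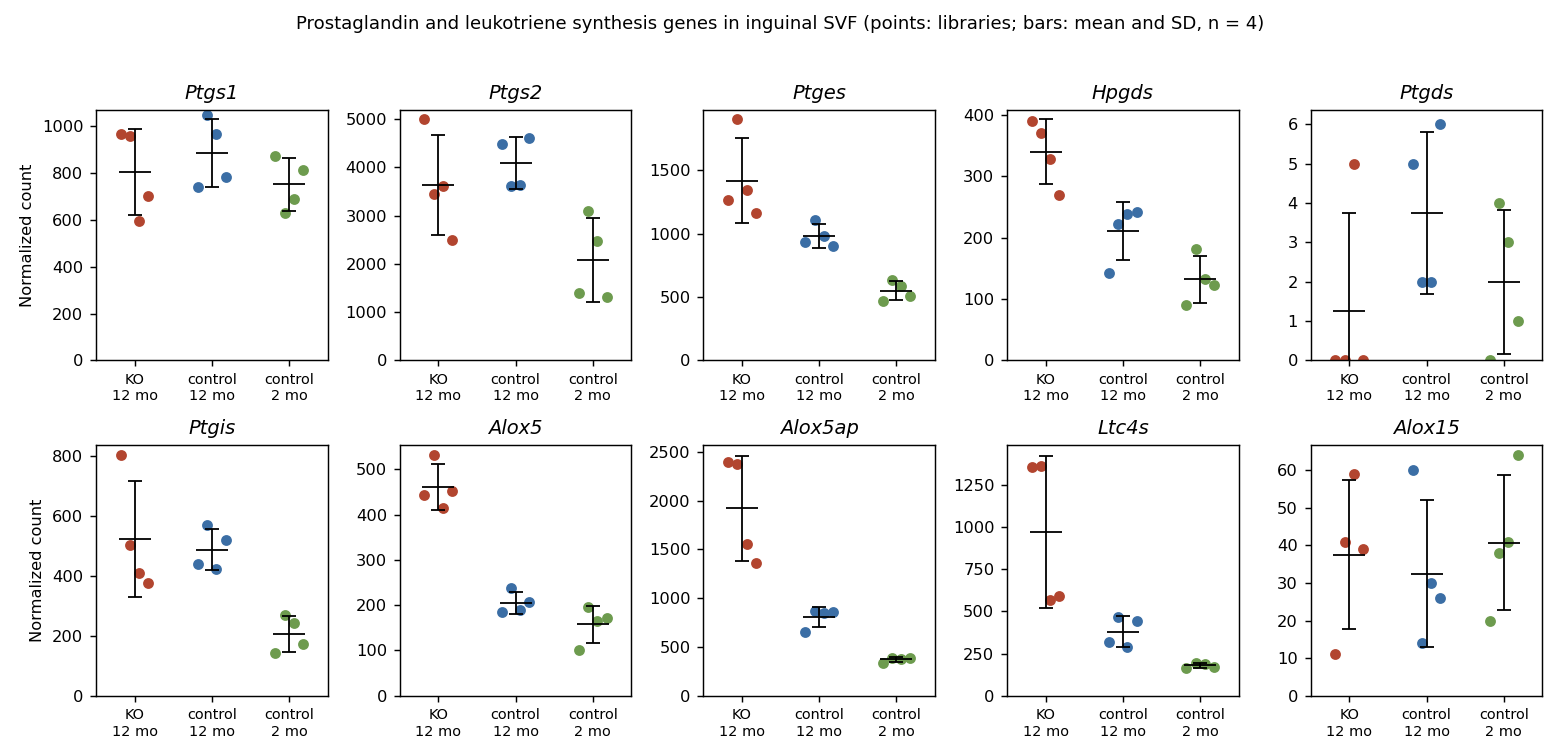
Normalized counts (y axis, linear, starting at 0) of the 10 genes in each library, with 12-month Pdgfrβ-KO on the left, 12-month control in the middle and 2-month control on the right; points are libraries and bars the mean and SD of 4. Alox5, Alox5ap, Ltc4s, Hpgds and Ptges lie without overlap above the 12-month controls in the KO libraries, while Ptgs1, Ptgds and Alox15 overlap across all 3 groups.

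Ptgs1, the constitutive cyclooxygenase, had 963, 955, 596 and 700 normalized counts in 12-month Pdgfrβ-KO SVF, 740, 1045, 965 and 783 in 12-month control SVF, and 872, 628, 689 and 811 in 2-month control SVF. All 3 groups overlapped. The log2 fold change was −0.15 ± 0.18 (SE, adjusted p = 0.618, limma) for 12-month Pdgfrβ-KO over 12-month control and 0.23 ± 0.13 (adjusted p = 0.227) for 12-month over 2-month control. Their 95% intervals ran from −0.54 to 0.23 and from −0.06 to 0.53, so that a change of about 1.5-fold was outside both.

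Ptgs2, the cyclooxygenase that is induced by growth factors and cytokines, had 5004, 3444, 3609 and 2499 normalized counts in 12-month Pdgfrβ-KO SVF, 4497, 3626, 3642 and 4610 in 12-month control SVF, and 1396, 3108, 2478 and 1312 in 2-month control SVF. The 12-month controls lay above every 2-month control, whose own values fell into a higher pair and a lower pair, and the KO libraries spanned the whole 12-month control range. Ptgs2 rose by a log2 fold change of 1.07 ± 0.24 with age (SE, adjusted p = 0.00910, limma), with means of 4094 ± 533 in 12-month control and 2074 ± 870 in 2-month control SVF (SD, n = 4 each). Without the filter on low values, the ageing call was lost (adjusted p = 0.0889). For 12-month Pdgfrβ-KO over 12-month control the log2 fold change was −0.20 ± 0.19 (adjusted p = 0.518), with a 95% interval from −0.62 to 0.21.

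Within each library the normalized count of Ptgs2 was divided by that of Ptgs1. The ratio was 5.19, 3.60, 6.05 and 3.57 in 12-month Pdgfrβ-KO SVF, 6.07, 3.47, 3.77 and 5.88 in 12-month control SVF, and 1.60, 4.94, 3.59 and 1.62 in 2-month control SVF. The groups overlapped, because 2 of the 2-month controls reached the range of the 12-month mice. On the log2 scale the difference between 12-month and 2-month controls was 0.84 (exact permutation test over 70 regroupings, two-sided, p = 0.143; adjusted p = 0.571 over 4 ratio tests), and that between 12-month Pdgfrβ-KO and 12-month control was −0.05 (exact permutation p = 0.743, adjusted p = 0.743). The smallest p this design allows is 0.0286.

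Ptges, the inducible microsomal PGE2 synthase, had 1263, 1905, 1347 and 1163 normalized counts in 12-month Pdgfrβ-KO SVF, 933, 1112, 979 and 905 in 12-month control SVF, and 470, 633, 587 and 505 in 2-month control SVF. The 3 groups did not overlap. Ptges rose with age by a log2 fold change of 0.84 ± 0.11 (SE, adjusted p = 0.000367, limma). In 12-month Pdgfrβ-KO over 12-month control the log2 fold change was 0.51 ± 0.15 and did not pass (adjusted p = 0.0584, limma), although the lowest KO library lay above the highest control. It passed without KO replicate 4 (adjusted p = 0.0340), with library weights (0.0343) and with all 12 libraries in one fit (0.0291).

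Hpgds, the PGD2 synthase of mast cells and other haematopoietic cells, had 390, 370, 328 and 270 normalized counts in 12-month Pdgfrβ-KO SVF, 142, 222, 239 and 242 in 12-month control SVF, and 90, 182, 132 and 123 in 2-month control SVF. All KO libraries were above all 12-month controls, whereas the control ages overlapped through the low 12-month control replicate 1 and the high 2-month control replicate 2. Hpgds was higher in 12-month Pdgfrβ-KO SVF by a log2 fold change of 0.70 ± 0.19 (SE, adjusted p = 0.0444, limma) and in 12-month over 2-month control SVF by 0.69 ± 0.22 (adjusted p = 0.0435). Both calls sat close to the threshold. The knockout call was lost when any one library other than KO replicate 4 was left out (adjusted p of 0.0529 to 0.117), and the ageing call was lost without 12-month control replicate 2 (0.087), 3 (0.0912) or 4 (0.107) or 2-month control replicate 1 (0.102), 3 (0.0804) or 4 (0.0975). Both were lost with library weights (0.0514 in the knockout comparison and 0.0566 with age) and with neither trend nor robust estimation (0.0777 and 0.0832), and the ageing call with quantile normalization (0.0679).

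The log2 ratio of Ptges to Hpgds in a library, a measure of the balance between the genes of a PGE2 and a PGD2 synthase, averaged 2.05 ± 0.28 in 12-month Pdgfrβ-KO, 2.24 ± 0.36 in 12-month control and 2.08 ± 0.24 in 2-month control SVF (SD, n = 4 each). The groups overlapped. The difference was −0.19 for 12-month Pdgfrβ-KO minus 12-month control (exact permutation p = 0.486, adjusted p = 0.686) and 0.15 for 12-month minus 2-month control (exact permutation p = 0.514, adjusted p = 0.686).

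Ptgds, the lipocalin-type PGD2 synthase, was at the floor of detection with 0, 0, 5 and 0 normalized counts in 12-month Pdgfrβ-KO SVF, 5, 2, 2 and 6 in 12-month control SVF, and 0, 4, 3 and 1 in 2-month control SVF. It was not tested, and a difference between groups was not detectable at this depth. Of the PGD2 synthase genes, Hpgds was the one with appreciable counts in this SVF.

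Ptgis, the prostacyclin synthase of vascular and stromal cells, had 803, 503, 410 and 377 normalized counts in 12-month Pdgfrβ-KO SVF, 439, 568, 423 and 521 in 12-month control SVF, and 143, 269, 241 and 171 in 2-month control SVF. The 12-month controls were all above the 2-month controls, and the KO libraries fell on both sides of the 12-month controls, with KO replicate 1 the highest of the 12 libraries. Its log2 fold change of 1.27 ± 0.19 with age (SE, adjusted p = 0.000723, limma) was the largest of the 9 tested genes. The log2 fold change was 0.05 ± 0.21 in 12-month Pdgfrβ-KO over 12-month control (adjusted p = 0.914), with a 95% interval from −0.43 to 0.52. A noncoding transcript on the opposite strand, 1110018N20Rik, shares 156 exonic bases with Ptgis and had 22 to 66 normalized counts.

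Alox5, the enzyme that starts leukotriene synthesis, had 444, 532, 415 and 452 normalized counts in 12-month Pdgfrβ-KO SVF, 186, 237, 189 and 207 in 12-month control SVF, and 101, 196, 164 and 171 in 2-month control SVF. The lowest KO library was above the highest control of either age by a wide margin, while the control ages overlapped. Alox5 averaged 461 ± 50.1 in 12-month Pdgfrβ-KO and 205 ± 23.4 in 12-month control SVF (SD, n = 4 each), a log2 fold change of 1.17 ± 0.13 (SE, adjusted p = 0.000667, limma). This call was kept in all 18 alternative analyses (adjusted p of 0.000104 to 0.00366). In 12-month over 2-month control SVF its log2 fold change of 0.41 ± 0.19 did not pass (adjusted p = 0.141; 95% interval −0.01 to 0.82) and passed in 0 of the 18 alternatives.

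Alox5ap, which presents arachidonic acid to 5-lipoxygenase, had 2391, 2376, 1559 and 1358 normalized counts in 12-month Pdgfrβ-KO SVF, 655, 871, 846 and 859 in 12-month control SVF, and 340, 384, 380 and 383 in 2-month control SVF. The 3 groups were fully separated, and within the KO group replicates 1 and 2 stood above replicates 3 and 4. Means were 1921 ± 540, 808 ± 102 and 372 ± 21.2 (SD, n = 4 each) in 12-month Pdgfrβ-KO, 12-month control and 2-month control SVF. Alox5ap rose by a log2 fold change of 1.21 ± 0.19 in 12-month Pdgfrβ-KO over 12-month control (SE, adjusted p = 0.00321, limma) and by 1.11 ± 0.11 in 12-month over 2-month control (adjusted p = 5.07e-05, limma). Both calls held in all 18 alternative analyses. The antisense gene Gm19719 shares 189 exonic bases with Alox5ap and had 1 to 14 normalized counts.

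Ltc4s, which makes leukotriene C4, had 1360, 1366, 568 and 592 normalized counts in 12-month Pdgfrβ-KO SVF, 319, 469, 290 and 445 in 12-month control SVF, and 163, 193, 190 and 173 in 2-month control SVF. The groups did not overlap, and the KO libraries split into the same pairs as for Alox5ap, replicates 1 and 2 being more than double replicates 3 and 4. The log2 fold change of 1.25 ± 0.30 in 12-month Pdgfrβ-KO over 12-month control (SE, adjusted p = 0.0275, limma) therefore carried a wide 95% interval, from 0.58 to 1.92. That call was lost without 12-month control replicate 1 (adjusted p = 0.0808) or 3 (0.0784) and without KO replicate 1 (0.0737) or 2 (0.0572). It was also lost without the filter on low values (0.075) and with neither trend nor robust estimation (0.0675). In 12-month over 2-month control SVF, Ltc4s rose by 1.05 ± 0.16 (adjusted p = 0.000844, limma), a call that held in all 18 alternatives. The antisense gene Gm26542 shares 268 exonic bases with Ltc4s and had 6 to 16 normalized counts.

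Alox15, a lipoxygenase of peritoneal macrophages and eosinophils that feeds lipoxin and resolvin synthesis, was low, with 11, 41, 59 and 39 normalized counts in 12-month Pdgfrβ-KO SVF, 60, 14, 30 and 26 in 12-month control SVF, and 20, 38, 41 and 64 in 2-month control SVF. The groups overlapped completely. The log2 fold changes were 0.16 ± 0.53 for 12-month Pdgfrβ-KO over 12-month control (SE, adjusted p = 0.872, limma) and −0.39 ± 0.42 for 12-month over 2-month control (adjusted p = 0.535), with 95% intervals from −0.996 to 1.33 and from −1.30 to 0.53 that include changes of more than 2-fold.

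**Figure D2:**
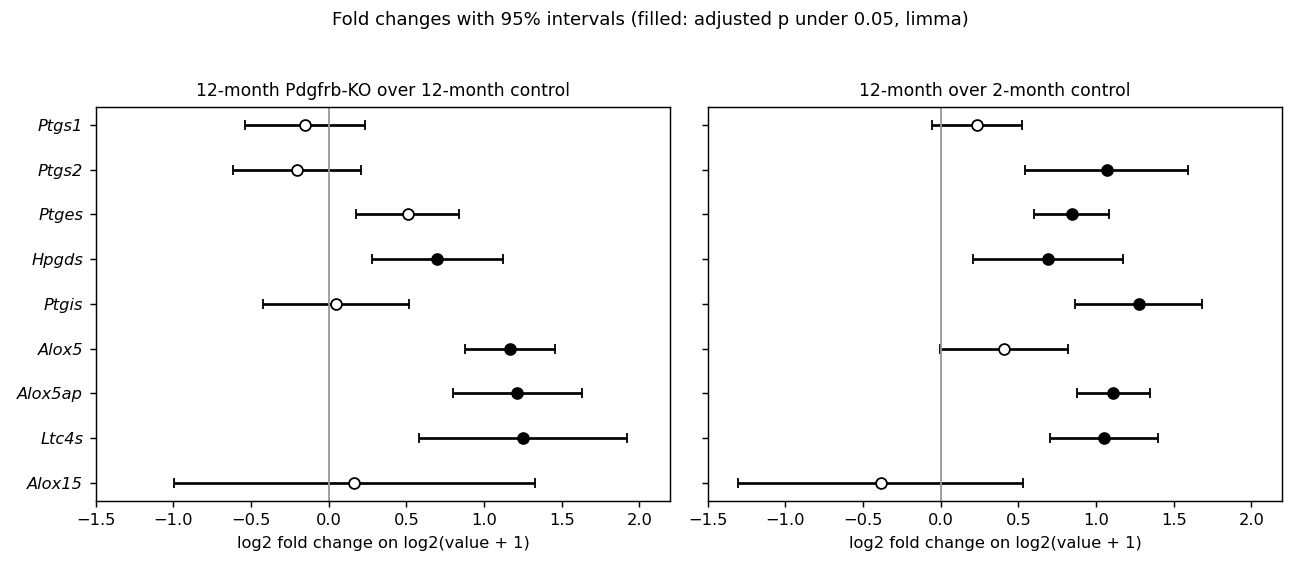
Log2 fold changes (x axis, on log2(value + 1)) with 95% intervals for the 9 tested genes, 12-month Pdgfrβ-KO over 12-month control on the left and 12-month over 2-month control on the right; filled points have an adjusted p under 0.05. On the left Alox5 (1.17), Alox5ap (1.21), Ltc4s (1.25) and Hpgds (0.70) are filled, and on the right Ptgs2, Ptges, Hpgds, Ptgis, Alox5ap and Ltc4s are.

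The count of 4 genes higher in 12-month Pdgfrβ-KO SVF depended on single libraries. It was 2 (Alox5 and Alox5ap) without 12-month control replicate 1 or 3 or KO replicate 1 or 2, 3 without 12-month control replicate 2 or 4 or KO replicate 3, and 5 without KO replicate 4. In the ageing comparison the count was 5 or 6 whichever library was left out. Counted by separation alone, 5 genes lay without overlap above the 12-month controls in the KO libraries (Ptges, Hpgds, Alox5, Alox5ap and Ltc4s), against 9.05% of all genes, and 5 lay without overlap above the 2-month controls in the 12-month controls (Ptgs2, Ptges, Ptgis, Alox5ap and Ltc4s), against 12.3% of all genes.

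Levels between genes were compared per kilobase of annotated exon. In 12-month Pdgfrβ-KO SVF the leading gene was Alox5ap, with 1353 ± 381 normalized counts per kb, followed by Ltc4s (958 ± 446) and Ptgs2 (795 ± 226), whose ranges over the 4 libraries all overlapped. In 12-month control SVF the leading gene was Ptgs2 (894 ± 116 per kb), above Alox5ap (569 ± 72.1) with no overlap, and Alox5ap overlapped narrowly with Ltc4s (376 ± 88.1; SD, n = 4). In 2-month control SVF Ptgs2 (453 ± 190 per kb) came before Alox5ap (262 ± 15.0) with no overlap. The levels of Ptgs1, Ltc4s and Ptges followed in the 2-month controls, at 193, 177 and 140 per kb, and neighbours in that order overlapped. Ptges (361 per kb in 12-month Pdgfrβ-KO and 250 in 12-month control SVF), Ptgs1 (207 and 227) and Ptgis (204 and 190) held the middle at 12 months, and Ptgs1 and Ptgis overlapped in both groups. Alox5 and Hpgds stood lower, at 112 and 52.8 per kb in 12-month Pdgfrβ-KO, 49.9 and 32.9 in 12-month control and 38.5 and 20.5 in 2-month control SVF, and Alox15 and Ptgds came last in every group. Hpgds overlapped with Alox5 in the 2-month controls and with Alox15 in both control groups.

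The list of 13 general macrophage markers moved in the same direction as the leukotriene genes, whereas 5 large peritoneal macrophage markers did not. Of those 5, Gata6 and Prg4 were higher and Selp and Itga6 lower with age (limma, adjusted p under 0.05). In 12-month Pdgfrβ-KO only Itga6 passed, and it was lower. The sums of these 5 were 4174 to 4901 in 12-month Pdgfrβ-KO, 5106 to 6910 in 12-month control and 8836 to 10462 in 2-month control SVF. Of 13 macrophage markers, 11 were higher and 0 lower in 12-month Pdgfrβ-KO than in 12-month control SVF, and 7 were higher and 0 lower in 12-month than in 2-month control SVF (limma, adjusted p under 0.05). At an unadjusted p under 0.05, 13 were higher and 0 lower in 12-month Pdgfrβ-KO, and 11 higher and 1 lower with age. Their summed normalized counts were 69704 to 114085 in 12-month Pdgfrβ-KO, 33444 to 47546 in 12-month control and 16663 to 24421 in 2-month control SVF, with no overlap between groups, and none of the markers was at 0 in every library of a group. KO replicates 1 and 2, which had the highest Alox5ap and Ltc4s, also had the highest macrophage sums (114085 and 107821, against 82251 and 69704 in replicates 3 and 4).

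Set against that sum, Alox5ap varied little. Per 1000 normalized counts of the macrophage markers there were 19.0 to 22.0 of Alox5ap in 12-month Pdgfrβ-KO, 17.9 to 19.7 in 12-month control and 15.7 to 20.4 in 2-month control SVF. Ltc4s had 6.91 to 12.7, 6.12 to 10.6 and 7.15 to 9.78 per 1000 in the same order of groups, and Alox5 had 3.89 to 6.48, 3.99 to 5.56 and 6.06 to 8.03. Hpgds had 3.42 to 3.99 per 1000 in 12-month Pdgfrβ-KO, all below the 4.25 to 5.09 of 12-month control SVF, and 5.08 to 7.45 in 2-month control SVF. Ptges had 11.1 to 17.7, 19.0 to 27.9 and 20.9 to 28.2 per 1000 in the same order of groups. The part of macrophage abundance in these results was not tested.

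**Figure D3:**
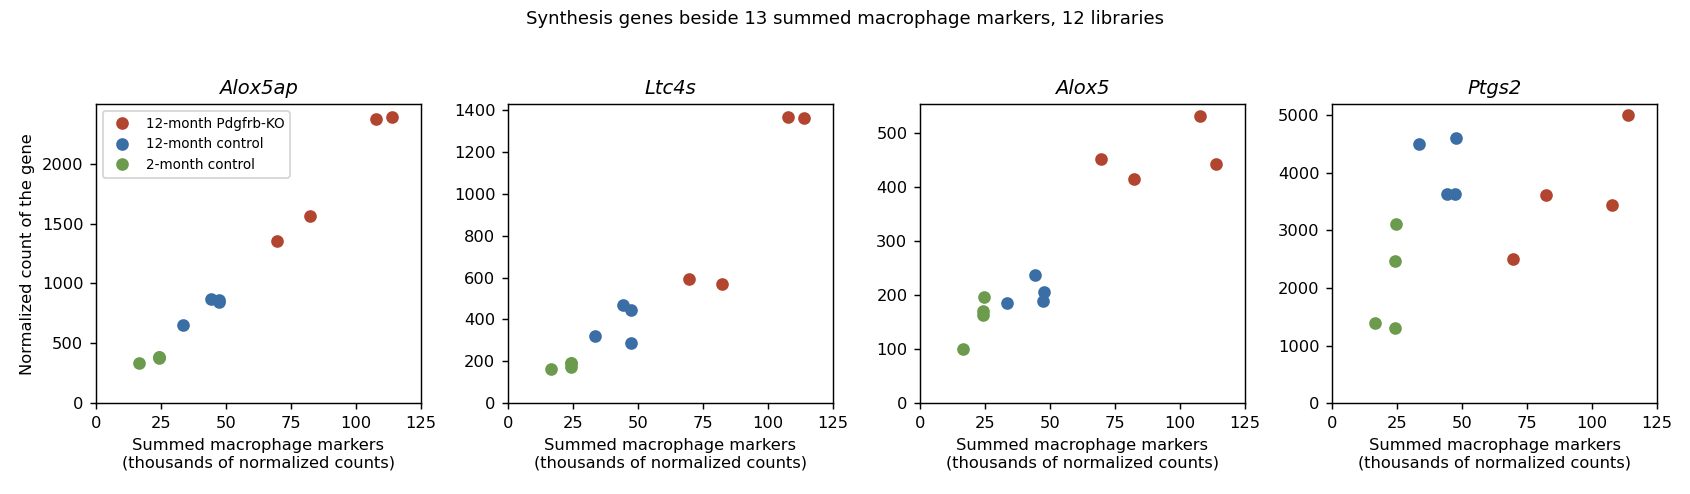
Normalized counts of Alox5ap, Ltc4s, Alox5 and Ptgs2 (y axes, linear) against the sum of 13 macrophage markers (x axis, normalized counts divided by 1000) in the 12 libraries, coloured by group. The Alox5ap points climb with the sum over all 3 groups, while the 12-month Pdgfrβ-KO points of Ptgs2 (2499 to 5004) lie around the height of the 12-month controls (3626 to 4610), although their macrophage sums (69704 to 114085) are all above those of the controls (33444 to 47546).

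Other cells that make leukotrienes or PGD2 were followed by their own markers. Of 10 mast cell markers, 8 were higher with age (limma, and none fell at an unadjusted p under 0.05), while in 12-month Pdgfrβ-KO over 12-month control 1 was higher (Hdc, which makes histamine, log2 fold change 0.58) and 1 lower (Kit, the stem cell factor receptor, −0.69). At an unadjusted p under 0.05, 4 were higher and 1 lower in 12-month Pdgfrβ-KO, with log2 fold changes of 0.53 for Cpa3, 0.67 for Cma1 and 0.60 for Tpsb2 beside Hdc. The Hdc call was kept in 10 of 18 alternatives (adjusted p of 0.00898 to 0.104, lost without any one library other than KO replicate 3), and the Kit call in 13 of 18 (0.00779 to 0.0687, lost without KO replicate 1 or 3 or 12-month control replicate 2 or 3). Summed mast cell markers were 8192 to 13662 in 12-month Pdgfrβ-KO, 5866 to 10017 in 12-month control and 3810 to 4569 in 2-month control SVF. Of 8 neutrophil markers, 5 were higher in 12-month Pdgfrβ-KO and 0 of 6 tested passed with age, by limma's unadjusted p as well. Their sum was 992 to 1854 in 12-month Pdgfrβ-KO, 291 to 683 in 12-month control and 385 to 461 in 2-month control SVF. The defining neutrophil gene Ly6g was at 0 to 8 normalized counts in KO libraries and 0 to 5 in controls. Of 8 eosinophil markers, 1 was higher and 0 lower with age (Prg2, a granule protein, log2 fold change 0.78, adjusted p = 0.00791, limma; the call was lost with one fit over 12 libraries, 0.0629), and 0 were higher and 1 lower in 12-month Pdgfrβ-KO (Ear2, a secreted ribonuclease, −1.18, adjusted p = 0.00705). At an unadjusted p under 0.05, 2 were higher and 0 lower with age, and 0 higher and 1 lower in 12-month Pdgfrβ-KO. Prg2 had 48 to 138 normalized counts in 12-month Pdgfrβ-KO, 101 to 126 in 12-month control and 56 to 83 in 2-month control SVF, Ear2 had 63 to 92, 120 to 213 and 72 to 156, and Il5ra had 64 to 194, 57 to 93 and 35 to 78. Epx, Ear1 and Ear6 were at 0 to 4 in all libraries, and the summed eosinophil markers were 223 to 377 in 12-month Pdgfrβ-KO, 324 to 451 in 12-month control and 184 to 337 in 2-month control SVF. The part of mast cells, neutrophils and eosinophils in these results was not tested.

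Fibroblastic progenitor markers, followed because Ptgs2 and Ptgis are also expressed by stromal cells, took another course. Of 11 such markers, 6 were higher and 0 lower with age, and 0 were higher and 3 lower in 12-month Pdgfrβ-KO over 12-month control (limma). At an unadjusted p under 0.05, 7 were higher and 1 lower with age, and 1 higher and 5 lower in 12-month Pdgfrβ-KO. Their sums were 82186 to 90341 in 12-month Pdgfrβ-KO, 100663 to 126777 in 12-month control and 66344 to 83653 in 2-month control SVF. Of 10 mural cell markers, 7 were lower and 1 higher with age and 0 passed in the knockout comparison, where 6 were lower at an unadjusted p under 0.05. Of 9 endothelial markers, 2 were lower with age and 1 was lower in 12-month Pdgfrβ-KO SVF, and none was higher in either comparison at an unadjusted p under 0.05. Further cell content differed between the groups. All 7 Schwann cell markers were lower with age (sums of 4291 to 4916 in 12-month control and 9825 to 12686 in 2-month control SVF) and 1 was lower in 12-month Pdgfrβ-KO. Of 8 mature adipocyte markers, 5 were higher with age and 1 was lower in 12-month Pdgfrβ-KO, although their sums overlapped in both comparisons. Of 7 skeletal muscle markers, 6 were lower in 12-month Pdgfrβ-KO (sums of 587 to 1553, against 2436 to 6017 in 12-month control SVF) and 1 was lower with age. The part of these cell types in the values of the synthesis genes was not tested.

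To describe the patterns of the 8 genes with a mean of at least 100 normalized counts, with no test, the 3 genes with the most similar profile were sought among 11240 genes of at least that mean, by the root mean square difference of centred log2 values over the 12 libraries. The nearest profiles were those of Cfp (0.14), C1qa (0.15) and C1qb (0.16) for Alox5ap, and of C1qa (0.17), Blvrb (0.19) and Clec10a (0.21) for Ltc4s. For Alox5 they were Csf1r (0.23), Pirb (0.24) and Scamp5 (0.25), and for Hpgds Rgs18 (0.19), Ptafr (0.19) and Csf1r (0.20). Ptges was nearest to Dennd2a (0.15), Sirpa (0.17) and Cd302 (0.18). The 3 nearest to Ptgs2 were Vgll3 (0.23), Emilin2 (0.24) and Has2 (0.25), those to Ptgis were Htra3 (0.22), Anxa1 (0.23) and Metrnl (0.23), and those to Ptgs1 were Tmcc2 (0.10), Pawr (0.12) and Sult1a1 (0.13). Of the 13 listed macrophage markers, C1qa, C1qb and Csf1r appear among the nearest genes of Alox5ap, Ltc4s, Alox5 and Hpgds. None of the 13 appears among those of the other 4. Nearest genes outside that list, such as Sirpa and Cd302 for Ptges, were not assigned to a cell type.

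The rest of the eicosanoid pathway was read from a list of 53 other genes, of which 41 passed the filter in the knockout comparison and 40 in the ageing comparison. In 12-month Pdgfrβ-KO over 12-month control SVF 5 were higher, 0 lower and 36 did not pass (limma). Of all genes tested there, 4.96% were called higher and 4.46% lower. At an unadjusted p under 0.05, 8 of the pathway genes were higher and 2 lower. In 12-month over 2-month control SVF 10 were higher, 4 lower and 26 did not pass, against 11.3% of all genes called higher and 11.4% lower. At an unadjusted p under 0.05, 14 pathway genes were higher and 6 lower with age. The median log2 fold change of the tested genes was 0.01 in the knockout comparison and 0.16 in the ageing comparison.

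Among the 10 phospholipases that free arachidonic acid, Pla2g4a, the cytosolic enzyme that supplies it for eicosanoid synthesis, had 334 to 391 normalized counts in 12-month control and 129 to 222 in 2-month control SVF, and rose by a log2 fold change of 1.03 (adjusted p = 0.00181, limma). The secreted enzyme Pla2g2d rose by 1.10 with age (adjusted p = 0.00238, limma). In 12-month Pdgfrβ-KO over 12-month control neither passed (log2 fold changes 0.08 and −0.52), and Pla2g2e, at 18 to 27 against 5 to 12 normalized counts, rose by 1.60 (adjusted p = 0.0182, limma). The Pla2g2e call was lost without 12-month control replicate 1, 2 or 3 (adjusted p of 0.05001 to 0.0524) and with one fit over 12 libraries (0.0903). Pla2g2a was at 0 in all 12 libraries.

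Among the 8 other prostaglandin and thromboxane synthases, Tbxas1 (thromboxane synthase) rose with age by a log2 fold change of 1.14 (adjusted p = 0.000763, limma) and Akr1b8, an aldo-keto reductase related to PGF2α-forming enzymes, by 1.25 (adjusted p = 0.000480). Fam213b, a prostamide and PGF synthase, was higher in both comparisons, by 1.11 in 12-month Pdgfrβ-KO (adjusted p = 0.0344) and by 0.53 with age (adjusted p = 0.0289). The knockout call of Fam213b was lost without KO replicate 1 (0.0932) or 2 (0.0675) or 12-month control replicate 1 (0.0987), 3 (0.0925) or 4 (0.0504), and its ageing call without 12-month control replicate 2 (0.0668) or 4 (0.0812) or 2-month control replicate 2 (0.0751) or 4 (0.0788). With neither trend nor robust estimation both calls were lost (0.0791 in the knockout comparison and 0.0602 with age), the knockout call was lost without the filter on low values (0.0636), and the ageing call with one fit over 12 libraries (0.17). The cytosolic PGE2 synthase Ptges3 averaged 2492, 2270 and 2068 normalized counts in 12-month Pdgfrβ-KO, 12-month control and 2-month control SVF and passed in neither comparison (adjusted p = 0.539 and 0.231).

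Of 6 genes of prostaglandin transport and breakdown, 2 were higher, 1 lower and 3 did not pass with age, and 1 was higher and 5 did not pass in the knockout comparison. Hpgd, the dehydrogenase that inactivates prostaglandins, had 487 to 805 normalized counts in 12-month control and 230 to 337 in 2-month control SVF (log2 fold change 1.11, adjusted p = 0.000631, limma), and Zadh2, a prostaglandin reductase, rose by 0.37 with age (adjusted p = 0.00970). The uptake carrier Slco2a1 fell by 0.43 on the log2 scale with age (adjusted p = 0.0151), a call that was lost without 2-month control replicate 3 (0.0514). In 12-month Pdgfrβ-KO over 12-month control Ptgr1, which acts in the breakdown of prostaglandins and leukotriene B4, rose by 1.29 (adjusted p = 0.00977, limma). Ptgr1 had 420 to 792 against 154 to 331 normalized counts, while Hpgd had a log2 fold change of −0.15 (adjusted p = 0.654, limma).

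Downstream of Ltc4s, the enzymes that trim leukotriene C4 were also measured. Ggt5, the γ-glutamyl transferase that converts leukotriene C4 to D4, had 1440 to 2494 normalized counts in 12-month Pdgfrβ-KO, 650 to 977 in 12-month control and 496 to 535 in 2-month control SVF. It rose by a log2 fold change of 1.43 in 12-month Pdgfrβ-KO over 12-month control (adjusted p = 0.00109, limma) and by 0.52 with age (adjusted p = 0.0116). Dpep1, a dipeptidase that converts leukotriene D4 to E4, rose by 1.15 with age (adjusted p = 2.73e-05, limma) and had a log2 fold change of −0.25 in 12-month Pdgfrβ-KO (adjusted p = 0.205). Ggt1 fell by 0.90 on the log2 scale with age (adjusted p = 0.0189), and Cyp4f18, which inactivates leukotriene B4, rose by 0.74 (adjusted p = 0.00542). Lta4h, which makes leukotriene B4, had means of 1643, 1656 and 1565 in 12-month Pdgfrβ-KO, 12-month control and 2-month control SVF and passed in neither comparison (adjusted p = 0.948 and 0.491, limma).

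Of the receptors, Fpr2, which binds lipoxin A4 and formyl peptides, had 28 to 57 normalized counts in 12-month Pdgfrβ-KO and 9 to 15 in 12-month control SVF, a log2 fold change of 1.96 (adjusted p = 0.00394, limma). The PGE2 receptor gene Ptger4 fell by 0.50 on the log2 scale with age (adjusted p = 0.00848), with 934 to 1386 in 12-month control and 1507 to 1771 in 2-month control SVF. The cysteinyl leukotriene receptor gene Cysltr1 had 261 to 356 in 12-month Pdgfrβ-KO and 162 to 278 in 12-month control SVF and did not pass (log2 fold change 0.54, adjusted p = 0.0862, limma). Of the other lipoxygenases Alox12 fell by 0.55 on the log2 scale with age (adjusted p = 0.0374), a call that was lost without 12-month control replicate 1 (0.0576), 2 (0.0719) or 4 (0.0788) or 2-month control replicate 1 (0.0958) or 4 (0.112), with one fit over 12 libraries (0.169), with library weights (0.0659) and with neither trend nor robust estimation (0.0613).

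**Figure D4:**
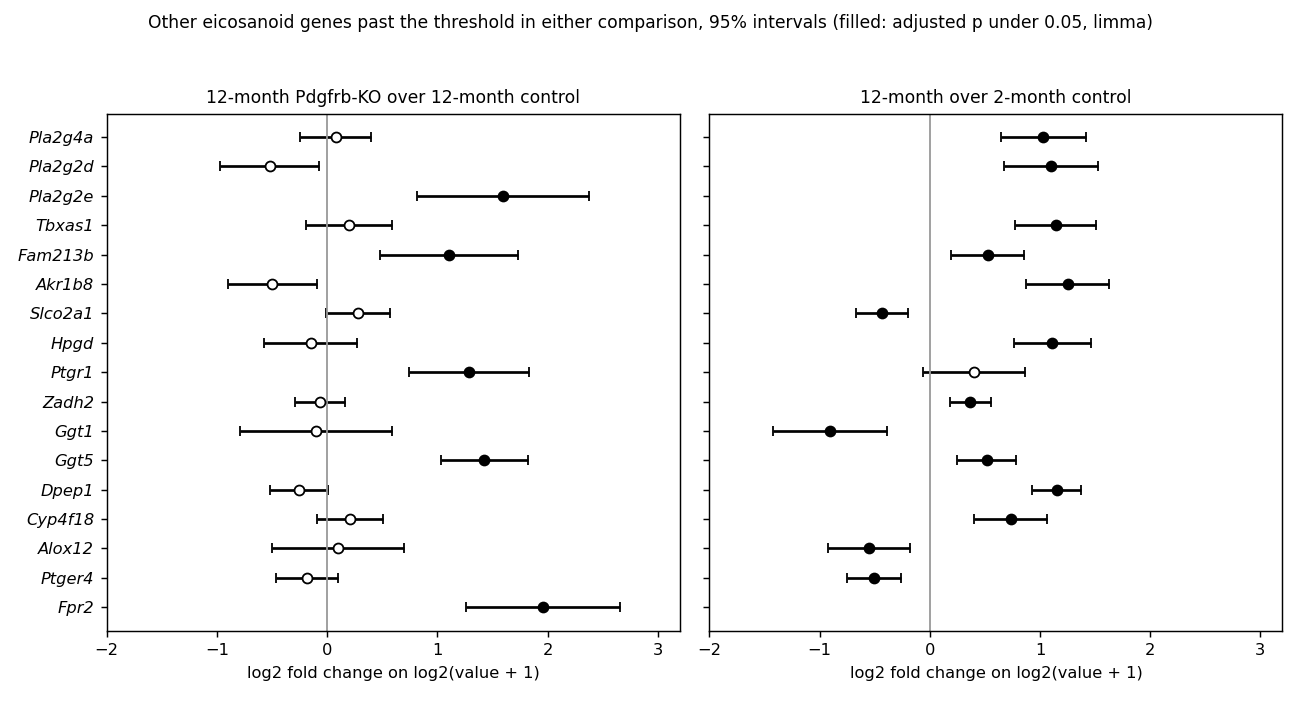
Log2 fold changes (x axis, on log2(value + 1)) with 95% intervals for the other eicosanoid genes past the threshold in at least one comparison, 12-month Pdgfrβ-KO over 12-month control on the left and 12-month over 2-month control on the right; filled points have an adjusted p under 0.05. On the left Pla2g2e, Fam213b, Ptgr1, Ggt5 and Fpr2 are filled, and Pla2g2e and Fpr2 were not tested on the right.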

How the data were processed

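Total RNA from inguinal SVF was poly(A)-selected and made into directional libraries. Per the labels, the submitters' processing notes name Trim Galore 0.6.0, cutadapt, FastQC, STAR 2.7.0e, DESeq2 1.26.0 and GRCm38, and the counting tool and its strand setting are not given in the sources used here. The deposited scores are gene counts that the authors divided by DESeq2 size factors and rounded to whole numbers. They are therefore not counts, and no count model was used. The 12-month control values were equal in both tables. In the deposited values of the ageing comparison, 27 gene names had turned into dates and 1 gene had a wrong identifier, and both were restored by matching the knockout table. Of the knockout table, 4 lines with no gene and 5 empty columns were left out.

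Each comparison was fitted on its own 8 libraries with limma 3.58.1 (trend and robust estimation, R 4.3.3, two-sided) on log2(value + 1), for genes that reached 10 in 4 libraries or more, with Benjamini-Hochberg adjustment over all genes tested and a threshold of 0.05. A fold change on this scale understates the change of low genes. Intervals are 95% confidence intervals. Ratios were compared by exact permutation tests (Python 3.11.15, numpy 2.4.6). The pipeline was tested on simulated data. Coordinates and exon lengths come from GENCODE vM21 on GRCm38 and upstream sequences from RefSeq. Replicate numbers are shared between groups, but nothing ties them to litters or batches. The alternatives were other pseudocounts, filters, normalizations and variance settings, a replicate block, one fit over 12 libraries, and leaving out each library. All 10 genes were named in every comparison, with pathway genes past the threshold, abundant pathway genes that did not pass, and the nearest profiles. The genes and lists were chosen with earlier results of these data known.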

Additional observations from a re-analysis of the deposited data

Results flagged for a closer look

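In each of the 30 sets of 4 libraries (10 genes in 3 groups) the most extreme library was set against the rest by Dixon's criterion, which flags about 1 set in 20 by chance, and 3 were flagged. Alox5ap was low in 12-month control replicate 1, at 655 normalized counts where the other 12-month controls had 846 to 871, and in 2-month control replicate 1, at 340 where the other 2-month controls had 380 to 384. Both libraries also had the lowest macrophage marker sum of their group, 33444 in the 12-month control and 16663 in the 2-month control. Ptgds was at 5 in 12-month Pdgfrβ-KO replicate 3 and at 0 in the other 3 KO libraries, a difference of a few reads.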

How the results depend on the processing

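Across the alternatives no called gene changed direction. With neither trend nor robust estimation, 2 of the synthesis genes were higher in 12-month Pdgfrβ-KO over 12-month control SVF instead of 4, and over the libraries left out in turn the count ran from 2 to 5. With a minimum mean of 50, Fpr2 and Pla2g2e were no longer tested, which left 3 other pathway genes higher in that comparison instead of 5. Over the libraries left out in turn, the count of other pathway genes ran from 3 to 5. Deviations of same-numbered libraries from their group means had correlations of 0.157, −0.216, −0.048 and −0.176 in the ageing comparison. In the knockout comparison the correlations were −0.0175, 0.375, 0.234 and −0.00277. Whether same-numbered libraries share more than a number was not tested. With the replicate block, 5 synthesis genes were higher in 12-month Pdgfrβ-KO, Ptges being the added one (adjusted p = 0.0122, limma), and 1 other pathway gene was lower; 6 synthesis genes were higher with age, and the ageing calls of Fam213b (0.0588) and Alox12 (0.0519) were lost.

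Over all genes, the knockout comparison called 810 higher and 729 lower, against 1200 and 1180 with the replicate block and 1289 and 1253 with one fit over 12 libraries, and 481 and 428 without 12-month control replicate 1, 529 and 367 without replicate 2, 517 and 358 without replicate 3 and 481 and 447 without KO replicate 1. The ageing comparison called 1853 higher and 1874 lower, and 1260 and 1145 without 2-month control replicate 4. The cause of these shifts was not tested. Ptgds lay at the floor of detection, and Alox15 was low and varied widely within a group (11 to 59 normalized counts in 12-month Pdgfrβ-KO). Values were rounded before deposit, so that low genes carry added error.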
